A study of Mus musculus with 11 samples.

Results

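The 10 genes described here encode serotonin receptors of the mouse: Htr1a, Htr1b, Htr1f, Htr2a, Htr2c, Htr3a, Htr4, Htr5a, Htr6 and Htr7. The rule that takes them lists names and uses no measured value, and all 10 were present among the 77179 Ensembl gene IDs of the expression table. A gene was tested where it reached 1 TPM, a transcript abundance scaled to length and to the library total, in at least 2 libraries, a mark reached by 19008 genes and 9 of the 10 receptors. Htr4 stayed below 1 TPM in all 11 libraries and is given as levels.

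Serotonin reaches the forebrain through axons of the raphe nuclei and acts on receptors of several classes. The Htr1 and Htr5 receptors couple mainly to inhibitory Gi/o proteins, the Htr2 receptors to Gq and phospholipase C, and the Htr4, Htr6 and Htr7 receptors to Gs and cyclic AMP, while Htr3 subunits form a cation channel. In the adult cortex Htr1a and Htr2a are known as the main receptors of pyramidal neurons, and Htr3a marks a large class of inhibitory interneurons.

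The study profiled ribosome-bound mRNA of excitatory neurons in cortex and hippocampus, which were dissected and processed together. In mice of the genotype NEX-Cre;Rpl10aeGFP/eGFP, Cre expressed from Neurod6 (NEX), a gene of postmitotic excitatory forebrain neurons, switches on a GFP-tagged ribosomal protein, and beads against GFP pull down the tagged ribosomes (IP). The IP libraries, labelled as biological replicates, were 3 at postnatal day 7 (P7), 3 at P14 and 3 at P21, all untreated and all of this genotype. They were set against 2 libraries of whole P7 lysate (input), of which replicate 1 had the genotype NEX-Cre;Rpl10aeGFP/eGFP and replicate 2 carried Rpl10aeGFP/eGFP without Cre. Input was made at P7 only, so at P14 and P21 the pull-down cannot be set against whole tissue. The sources used here do not say whether animals were pooled.

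Libraries of a group correlated at 0.988 to 0.994 over all genes tested, and 15154 to 17793 genes per library reached 1 TPM. Slc17a7, the vesicular glutamate transporter of cortical excitatory neurons, differed by 0.21 on the log2 scale between P7 IP and P7 input (limma, adjusted p = 0.124). Over the 8 excitatory neuron markers 3 were higher in P7 IP, among them Neurod6 (0.47, adjusted p = 0.0118), 1 was lower and 4 were not called. The GABA-synthesis gene Gad1 was lower in P7 IP by 3.31 units (log2 change -3.31, adjusted p = 1.22e-07). All 11 markers of inhibitory neurons were lower in P7 IP, and none was at 0. Reads behind a TPM value are not known, so counting error could not be given. Fewer cells of a type and less RNA per cell cannot be told apart in such bulk values.

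The start-site windows of 3 receptors with different courses over age are shown, of which that of Htr7 stands apart in its G and C content. A link between window and course was not tested. Htr7 fell after P7, Htr2a was higher at both later ages, and Htr2c was high at P14 only. Each window runs from 250 bases before to 50 bases after the annotated start, 5′ to 3′ on the strand of the gene, from RefSeq on GRCm38.p6. Capitals mark a match to a searched motif on either strand. The Htr7 window lies at chr19:36057311-36057610 on the minus strand, the Htr2a window at chr14:74640624-74640923 on the plus strand and the Htr2c window at chrX:146962263-146962562 on the plus strand.
Htr7: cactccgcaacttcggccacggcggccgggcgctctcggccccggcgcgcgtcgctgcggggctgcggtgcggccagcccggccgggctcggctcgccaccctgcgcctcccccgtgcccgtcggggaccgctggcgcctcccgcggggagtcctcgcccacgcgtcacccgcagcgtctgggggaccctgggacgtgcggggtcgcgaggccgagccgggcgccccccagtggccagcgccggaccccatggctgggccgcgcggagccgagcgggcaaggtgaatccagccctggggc
Htr2a: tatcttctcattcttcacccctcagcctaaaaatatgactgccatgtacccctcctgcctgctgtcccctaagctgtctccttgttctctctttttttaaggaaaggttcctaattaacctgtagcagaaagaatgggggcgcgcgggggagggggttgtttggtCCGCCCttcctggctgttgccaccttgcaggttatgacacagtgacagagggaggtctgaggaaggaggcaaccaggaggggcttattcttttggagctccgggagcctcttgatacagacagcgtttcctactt
Htr2c: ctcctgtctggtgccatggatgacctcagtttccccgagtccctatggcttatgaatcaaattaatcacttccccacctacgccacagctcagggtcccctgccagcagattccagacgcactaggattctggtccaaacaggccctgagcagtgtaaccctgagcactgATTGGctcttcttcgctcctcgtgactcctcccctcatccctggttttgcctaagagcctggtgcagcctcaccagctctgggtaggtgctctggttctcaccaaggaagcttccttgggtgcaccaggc

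Both strands were searched for the TATA box (TATAAA), the box named for its letters CCAAT, the GC box (written GGGCGG), the cyclic AMP response element (searched as TGACGTCA) and the NeuroD E-box (letters CAGATG). The Htr7 window held none of these letters and had 81.0% G and C, against a median of 52.7% over 32851 windows of the same length. The Htr2a window had 52.0% G and C and held GGGCGG on the minus strand at -85, a motif found in 35.7% of all windows. The Htr2c window had 56.3% G and C and held CCAAT on the minus strand at -80, a motif found in 37.4% of all windows. Of the other motifs TATAAA occurs in 13.6% of windows, TGACGTCA in 1.79% and CAGATG in 17.2%, and none of the 8 members with a window used here held any of them. The table of windows follows an older build than the mm39 of the expression data, so the sequences are given for identity and no value was read through their coordinates.

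In pulled-down mRNA the family was low to moderate in level, with Htr7 highest at P7. Htr7 averaged 14.6 ± 1.03 TPM in P7 IP (SD, n = 3), above 63.8% of the genes tested, and none of the other 9 members reached its lowest P7 IP library of 13.4 TPM. Behind it Htr2c (5.36 TPM), Htr5a (4.62), Htr1a (4.21), Htr1b (3.02), Htr2a (2.83) and Htr6 (2.16) formed a graded series at P7 in which each gene's libraries overlapped those of its neighbour. Htr1f (0.780 TPM), Htr3a (0.497) and Htr4 (0.350) came last without overlap between neighbours. TPM is scaled to transcript length, so these levels can be set side by side.

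The order changed with age. At P14 the libraries of Htr7 (9.89 TPM) and Htr2c (9.00 TPM) overlapped at the top, with Htr1a (7.45 TPM) next and separate from both. At P21 Htr7 (8.20 TPM) was again separate at the top. Below it Htr1a (6.47), Htr2a (5.47), Htr2c (5.14) and Htr5a (4.85) overlapped from neighbour to neighbour. In P7 input Htr2c (10.7 TPM) and Htr7 (9.16 TPM) overlapped at the top and Htr1f (0.510 TPM) was the lowest member.

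**Figure D1:**
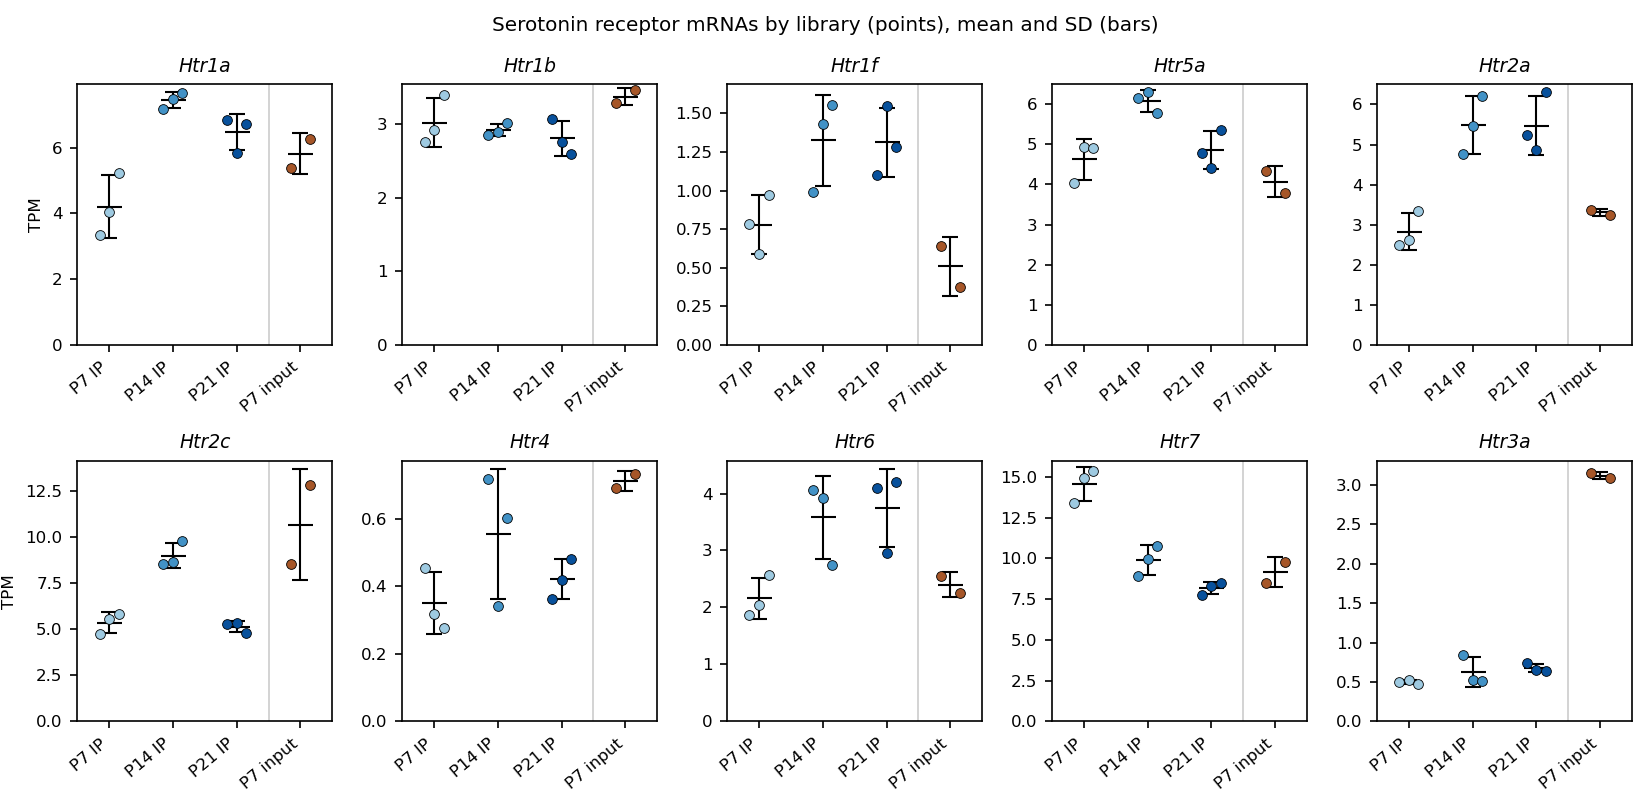
TPM of the 10 receptor genes in each library (points), with group mean and SD (bars), for P7, P14 and P21 IP and P7 input, each panel on its own axis from 0. Htr7 is highest in the 3 P7 IP libraries, Htr2c peaks at P14 among the IP groups, and Htr3a is above 3 TPM in both input libraries and below 1 TPM in all 9 IP libraries.

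Setting P7 IP against P7 input asks which receptor mRNAs are over- or under-represented on tagged ribosomes relative to whole tissue. Htr7 was higher in P7 IP, Htr3a, Htr2c and Htr1a were lower, and 5 members passed in neither direction. In limma on log2(TPM + 1), with adjustment over all 19008 genes, that is 1 member higher and 3 lower of 9, or 1 higher and 2 lower of 8 without Htr3a, which entered the test only through its input libraries. Over all genes 69.8% were called, 18.6% higher and 51.1% lower, and the median of all genes lay at -0.33. The members' median was -0.12. The libraries of the groups did not overlap for 4 of the 9 members, Htr3a among them, against 78.4% of all genes.

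Htr7, a Gs-coupled receptor, had 13.4, 14.9 and 15.3 TPM in P7 IP, against 8.52 and 9.80 TPM in P7 input. All 3 IP libraries lay above both input libraries. The log2 change was 0.61 ± 0.10 (SE; adjusted p = 0.000208), and it kept its call in all 15 alternatives to the processing, with values of 0.47 to 1.16.

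Htr3a, the channel subunit of interneurons, had 0.497, 0.524 and 0.470 TPM in P7 IP, against 3.15 and 3.09 TPM in P7 input. The groups were far apart, with a log2 change of -1.46 ± 0.11. Htr3a reached 1 TPM only in the 2 input libraries, the group where it is high, so this change is given as a description without a test. The 9 markers of interneurons from the caudal ganglionic eminence, the class that carries Htr3a, summed to 68.7 to 80.4 TPM in P7 IP and 159 to 172 TPM in P7 input. All 9 were lower in P7 IP and none was at 0, and their part in the Htr3a value was not tested.

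Htr2c, a Gq-coupled receptor abundant in choroid plexus and in subsets of neurons, had 4.73, 5.53 and 5.82 TPM in P7 IP, against 8.57 and 12.8 TPM in P7 input. Its groups did not overlap, but the 2 input libraries differed from each other more than the IP libraries did. The log2 change was -0.86 ± 0.14 (adjusted p = 0.000324). With the Cre-carrying input library only it was -0.59, and with the Cre-negative one only -1.12. After quantile normalisation it was -0.31 and no longer called (adjusted p = 0.104).

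The 10 choroid plexus markers summed to 30.1 to 47.2 TPM in P7 IP and 557 to 596 TPM in P7 input, with 9 of 10 lower in P7 IP and none at 0. Their part in the Htr2c difference was not tested. The sums in the other IP groups were 66.0 to 77.9 TPM at P14 and 76.9 to 109 TPM at P21.

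Htr1a, the main inhibitory serotonin receptor of pyramidal neurons, had 3.35, 4.05 and 5.22 TPM in P7 IP, against 5.38 and 6.25 TPM in P7 input. The IP libraries lay below the input libraries by a narrow gap, and the log2 change was -0.40 ± 0.14 (adjusted p = 0.0236), close to the median of all genes. The call was lost without P7 input replicate 2 (adjusted p = 0.162), P7 IP replicate 1 (0.0699) or P7 IP replicate 2 (0.0549), and in a fit of these 2 groups alone (0.0851). The sign turned under median-of-ratios scaling (0.01) and quantile normalisation (0.19), neither called.

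The other members were Htr1b at -0.12 (adjusted p = 0.287), Htr1f at 0.24 (0.192), Htr2a at -0.18 (0.264), Htr5a at 0.15 (0.245) and Htr6 at -0.11 (0.577). Htr4, outside the test, had 0.454, 0.318 and 0.278 TPM in P7 IP, against 0.692 and 0.732 TPM in P7 input. Its IP libraries lay below both input libraries, and a fit without the filter gave an adjusted p of 0.0624.

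Median-of-ratios scaling moved the median of all genes up by 0.39 and quantile normalisation by 0.36. Over all genes, 3541 higher and 9718 lower then became 6829 higher and 5555 lower, and 6256 higher and 6025 lower. Under median-of-ratios scaling 3 members were higher (Htr1f, Htr5a and Htr7) and 2 lower (Htr2c and Htr3a). Under quantile normalisation 6 were higher and only Htr3a of the 9 was lower. Htr7 was called higher under all 3 scalings, while Htr1a, Htr1b, Htr2a and Htr6 turned from below to above 0. Htr3a stood at -1.46 as deposited, -1.13 under median-of-ratios scaling and -0.89 under quantile normalisation. Since Htr3a entered the test only through its input libraries, these values are a description and its calls here carry no weight.

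**Figure D2:**
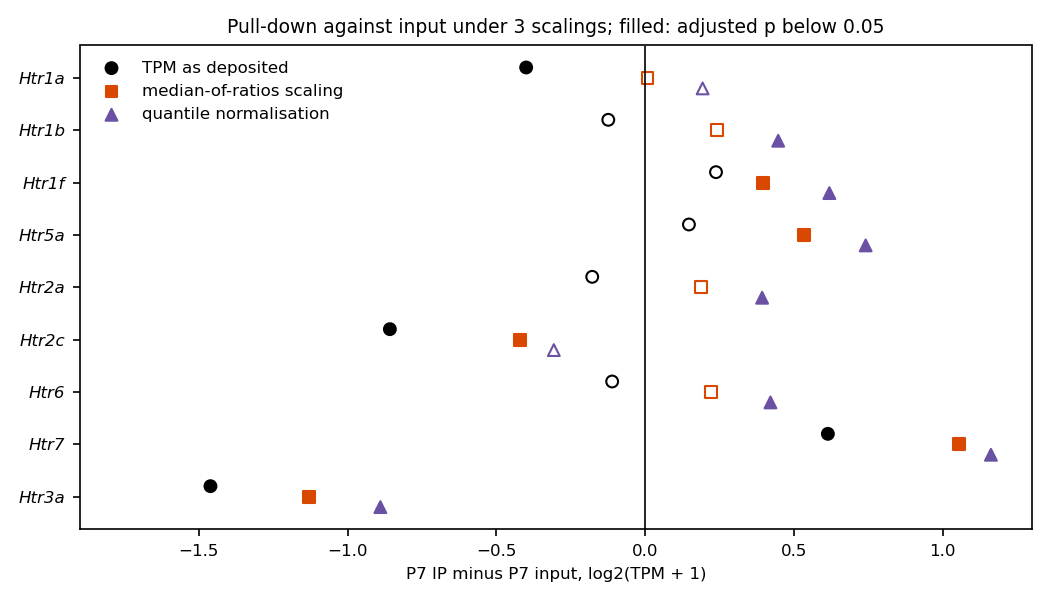
Difference between P7 IP and P7 input in log2(TPM + 1) for the 9 tested receptors under 3 scalings of the table (filled symbols, adjusted p below 0.05). Every member moves to the right under the other scalings, and Htr7 and Htr3a keep opposite ends of the range.

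The next comparisons ask how the receptor mRNAs on excitatory-neuron ribosomes change between P7 and P21. Between P14 and P7, Htr1a, Htr2a, Htr2c, Htr5a and Htr6 rose and Htr7 fell. Htr1f was also called higher, but passed the filter only through P14 and P21 libraries, the groups where it is high. With it 6 members were higher and 1 lower of 9, and without it 5 were higher and 1 lower of 8, where 49.5% of all genes were called, 26.7% higher and 22.8% lower. The members' median change was 0.38, which is the value of Htr1f itself, against 0.03 for all genes. The libraries of P14 and P7 did not overlap for 7 of the 9, Htr1f among them, against 57.8% of all genes. Leaving out P7 IP replicate 1 lowered the 6 to 3, since Htr1f, Htr5a and Htr6 were then not called.

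Between P21 and P14 only Htr2c of the 9 was called, lower at P21, where 28.3% of all genes were called, 8.53% higher and 19.7% lower. None was called higher (0 of 9 in limma), also under median-of-ratios scaling and quantile normalisation, and 0 of the 3 members with an unadjusted p under 0.05 were higher. Over all genes 1621 were higher and 3749 lower, against 2691 higher and 2258 lower under median-of-ratios scaling. The libraries of P21 and P14 did not overlap for 4 of the 9 members, against 43.8% of all genes.

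At P21 against P7, 4 members were higher (Htr1a, Htr1f, Htr2a and Htr6) and 1 was lower (Htr7) of 9. Without Htr1f, 3 were higher and 1 lower of 8, where 59.9% of all genes were called, 27.3% higher and 32.6% lower. The libraries of 6 of the 9 did not overlap, Htr1f and Htr3a among them, against 63.9% of all genes. An F test over the 3 ages called 7 of 9 members, where 62.6% of all genes were called. That was 6 of 8 without Htr1f and 6 of 7 without Htr1f and Htr3a. The test left out Htr1b (adjusted p = 0.725) and Htr3a (0.354). The F test call of Htr1f (adjusted p = 0.0473) held in 8 of 18 alternatives, and without P14 IP replicate 2 the 7 became 5, with Htr1f (0.0826) and Htr5a (0.0836) not called. The second weekly step (P21 minus P14) was below the first (P14 minus P7) for 4 of the 9 (Htr1a, Htr2a, Htr2c and Htr5a) and above it for 0 (0 also at an unadjusted p under 0.05, and 1, Htr7, under median-of-ratios scaling), where 24.3% of all genes were called, 7.46% higher and 16.8% lower.

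**Figure D3:**
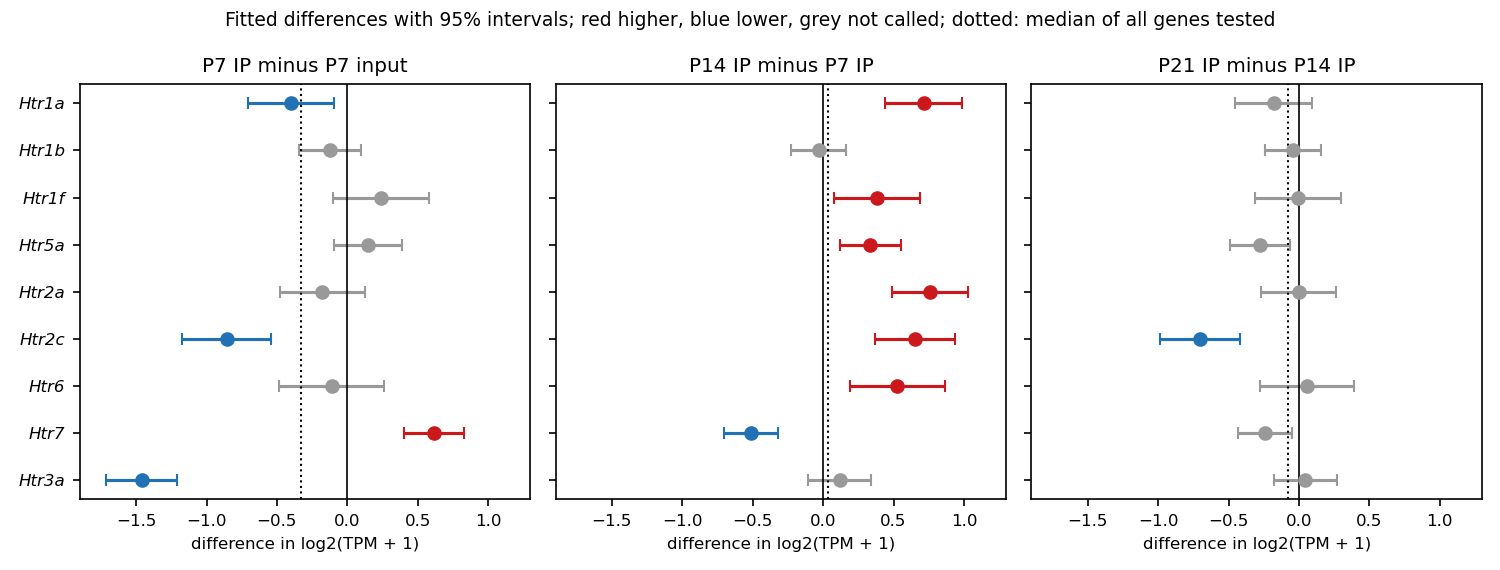
Fitted differences in log2(TPM + 1) with 95% intervals for the 9 tested receptors in P7 IP minus P7 input, P14 IP minus P7 IP and P21 IP minus P14 IP (red, called higher; blue, called lower; grey, not called; dotted, median of all genes tested). In the middle panel 6 called members lie to the right and 1, Htr7, to the left. The 6 include Htr1f, which passed the filter only through P14 and P21 libraries. In the right panel Htr2c is the only called member of the 9.

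Among the Gi/o-coupled receptors Htr1a had 3.35, 4.05 and 5.22 TPM in P7 IP, 7.18, 7.49 and 7.68 TPM in P14 IP and 6.84, 5.85 and 6.72 TPM in P21 IP. Every later library lay above every P7 library. P14 exceeded P7 by 0.71 ± 0.12 (adjusted p = 0.000712) and P21 exceeded P7 by 0.53 ± 0.12 (adjusted p = 0.00334), both called in all 16 alternatives. P21 and P14 differed by -0.18 (adjusted p = 0.312), although their libraries did not overlap.

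Htr5a, a receptor found mainly in neurons of the brain, had 4.03, 4.94 and 4.90 TPM in P7 IP, 6.16, 6.30 and 5.77 TPM in P14 IP and 4.79, 4.41 and 5.36 TPM in P21 IP. The P14 libraries lay above all P7 and P21 libraries, and the P7 and P21 libraries overlapped. P14 was higher than P7 by 0.34 ± 0.10 (adjusted p = 0.0144), which did not pass once P7 IP replicate 1 was left out (0.0545). P21 was not called against P14 (log2 change -0.28, adjusted p = 0.0556), but was in 3 of 15 alternatives.

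Htr1f, a receptor studied as a target of migraine drugs, had 0.782, 0.589 and 0.971 TPM in P7 IP, 0.989, 1.43 and 1.56 TPM in P14 IP and 1.1, 1.55 and 1.28 TPM in P21 IP. The P14 libraries were all above those of P7, the lowest by a narrow gap. The change of 0.38 ± 0.14 (adjusted p = 0.0405) was called in only 7 of 15 alternatives, and that of P21 against P7, also 0.38 (adjusted p = 0.0354), in 10 of 15. Since Htr1f passed the filter through 2 P14 and 3 P21 libraries and no P7 library, these p-values lend its rise no weight of their own.

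Htr1b, known as a presynaptic receptor on axon terminals, had 2.75, 2.92 and 3.40 TPM in P7 IP, 2.86, 2.89 and 3.02 TPM in P14 IP and 3.07, 2.76 and 2.59 TPM in P21 IP. The 3 ages overlapped throughout. P14 differed from P7 by -0.03, with a 95% interval of -0.23 to 0.17, and no alternative called Htr1b between ages.

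The Gq-coupled pair, Htr2a and Htr2c, diverged after P14. Htr2a, the receptor of classical psychedelics, had 2.51, 2.63 and 3.35 TPM in P7 IP, 4.77, 5.47 and 6.21 TPM in P14 IP and 5.23, 4.88 and 6.30 TPM in P21 IP. The P14 and P21 libraries overlapped each other and lay above all P7 libraries. The change was 0.76 ± 0.12 at P14 (adjusted p = 0.000415) and 0.76 ± 0.12 at P21 (adjusted p = 0.000289), each against P7 and each called in all 15 alternatives. P21 minus P14 was -0.00 (adjusted p = 0.993).

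Htr2c had 4.73, 5.53 and 5.82 TPM in P7 IP, 8.56, 8.67 and 9.78 TPM in P14 IP and 5.29, 5.34 and 4.81 TPM in P21 IP. The P14 libraries stood alone, and those of P7 and P21 overlapped. P14 exceeded P7 by 0.66 ± 0.13 (adjusted p = 0.00162), P21 was below P14 by 0.70 units (log2 change -0.70 ± 0.13, adjusted p = 0.00279), and both calls held in all 16 alternatives. P21 differed from P7 by -0.05, with a 95% interval of -0.33 to 0.24.

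In the same libraries Htr2c had 1.89, 2.11 and 1.74 times the TPM of Htr2a at P7, 1.80, 1.59 and 1.58 times at P14 and 1.01, 1.1 and 0.763 times at P21. The ratio at P21 lay below that of every younger library. In P7 input it was 2.54 and 3.94.

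Among the Gs-coupled receptors Htr7 had 13.4, 14.9 and 15.3 TPM in P7 IP, 8.92, 9.96 and 10.8 TPM in P14 IP and 7.78, 8.30 and 8.52 TPM in P21 IP. The 3 ages did not overlap. P14 was below P7 (log2 change -0.52 ± 0.09, adjusted p = 0.000579) and so was P21 (-0.76 ± 0.09, adjusted p = 2.31e-05), each in all 16 alternatives. P21 was not called against P14 (-0.24 ± 0.09, adjusted p = 0.0616), but was in 3 of 16 alternatives.

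Htr6, a receptor of neuronal primary cilia, had 1.87, 2.05 and 2.57 TPM in P7 IP, 4.07, 3.93 and 2.75 TPM in P14 IP and 4.10, 2.96 and 4.20 TPM in P21 IP. All later libraries lay above those of P7, with 1 P14 and 1 P21 library nearer to them than the rest. P14 exceeded P7 by 0.53 ± 0.15 (adjusted p = 0.0138), which did not pass when P7 IP replicate 1 was left out (0.0507), nor without P14 IP replicate 1 (0.0549) or P14 IP replicate 2 (0.0509). P21 exceeded P7 by 0.58 ± 0.15 (adjusted p = 0.00638) in all 15 alternatives.

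Htr4, a Gs-coupled receptor known in hippocampus, had 0.454, 0.318 and 0.278 TPM in P7 IP, 0.717, 0.342 and 0.604 TPM in P14 IP and 0.362, 0.419 and 0.481 TPM in P21 IP, with overlap between all ages. Htr3a had 0.497, 0.524 and 0.470 TPM in P7 IP, 0.848, 0.532 and 0.511 TPM in P14 IP and 0.737, 0.655 and 0.638 TPM in P21 IP. Its changes of 0.12 at P14 (adjusted p = 0.369) and 0.16 at P21 (adjusted p = 0.192), each against P7, were not called.

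Markers of other cells moved with age in the pull-down as well, in both directions. Astrocyte markers summed to 54.1 to 81.3 TPM at P7, 184 to 211 TPM at P14 and 214 to 269 TPM at P21, and oligodendrocyte markers to 30.9 to 34.5, 290 to 393 and 484 to 695 TPM. Microglial markers summed to 6.07 to 9.97, 16.1 to 20.8 and 15.7 to 22.7 TPM, and all 11 inhibitory neuron markers to 65.1 to 76.3, 72.3 to 83.6 and 80.7 to 99.4 TPM. Markers of Cajal-Retzius cells summed to 67.3 to 86.4, 53.6 to 57.0 and 27.4 to 30.6 TPM. Those of interneurons from the caudal ganglionic eminence summed to 68.7 to 80.4, 55.8 to 65.1 and 38.3 to 42.8 TPM. Among the IP ages both sums were highest at P7, as Htr7 was, and the lists share Calb2. In P7 input the Cajal-Retzius sum was 150 to 176 TPM and the interneuron sum 159 to 172 TPM. Both lay above P7 IP, while Htr7 was lower in P7 input (9.16 TPM) than in P7 IP (14.6 TPM). Of the 9 interneuron markers 2 were higher and 3 lower at P14 against P7, beside 26.7% and 22.8% of all genes. At P21 against P7, 2 were higher and 4 lower, beside 27.3% and 32.6%. Of the 6 Cajal-Retzius markers 3 were tested, with 2 lower and 0 higher in each of these comparisons. No marker in these lists was at 0 in any library, and their part in the receptor changes was not tested. The 8 excitatory neuron markers summed to 1126 to 1361 TPM at P7, 2652 to 2877 TPM at P14 and 3090 to 3287 TPM at P21. Most of them did not follow that sum: at P14 against P7, 2 of 8 were higher (Slc17a7 by 1.55, and Camk2a, named after its values were seen, by 1.77) and 5 lower, with a median of -0.21. At P21 against P7, 3 were higher and 4 lower, with a median of -0.15.

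The summed TPM of the 10 receptors was 34.4, 38.5 and 42.3 in P7 IP, 45.1, 47.0 and 48.7 in P14 IP, 39.3, 37.1 and 40.9 in P21 IP and 40.5 and 45.8 in P7 input. The P14 sums were the highest of the 3 ages, and those of P7 and P21 overlapped. As a description without a test, the Gs-coupled members made up 43.0% to 45.7% of the sum at P7, 29.0% to 30.4% at P14 and 31.1% to 32.3% at P21. The fall in this share lay in Htr7, which took 36.26% to 38.95%, 19.79% to 22.16% and 19.79% to 22.36%. Htr6, also Gs-coupled, took 5.32% to 6.07%, 5.65% to 9.03% and 7.98% to 10.42%, so the class did not move as a whole.

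The Gi/o-coupled members took 31.8% to 34.2%, 37.0% to 38.5% and 39.0% to 40.2% at the 3 ages. The Gq-coupled members took 21.1% to 21.7%, 29.6% to 32.9% and 26.8% to 27.5%. In P7 input the Gs-coupled share was 29.1% and 27.9%, below all P7 IP libraries, and Htr3a took 7.78% and 6.74%, against at most 1.88% in any IP library. Htr7 had 5.34, 5.68 and 4.58 times the TPM of Htr2a at P7, 1.87, 1.82 and 1.74 times at P14 and 1.49, 1.70 and 1.35 times at P21.

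**Figure D4:**
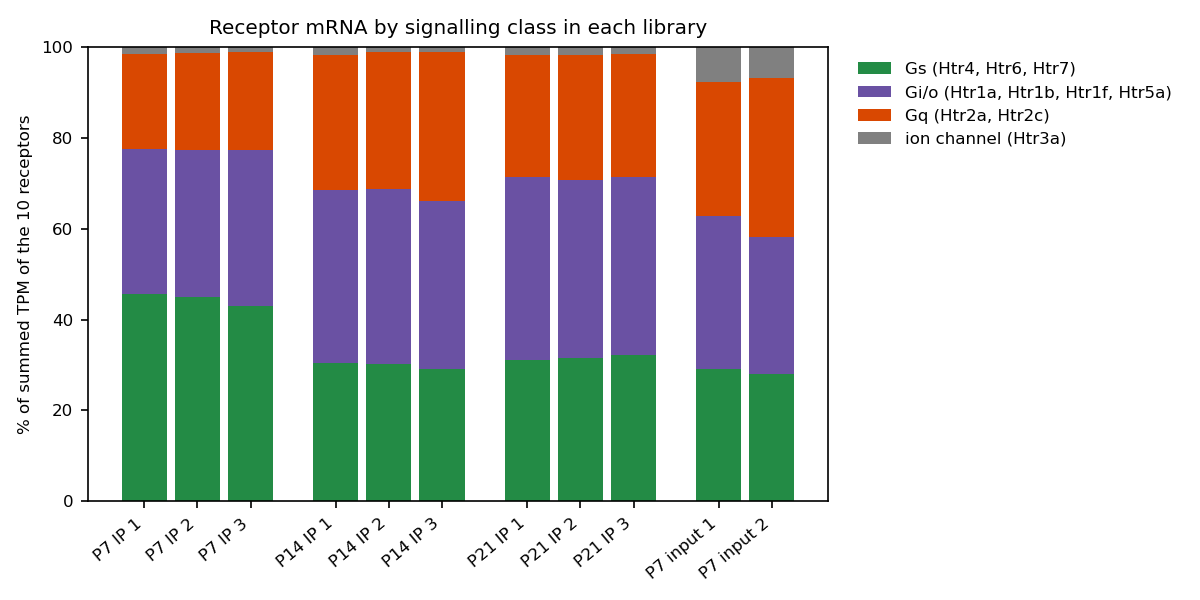
Share of the summed TPM of the 10 receptors held by each coupling class (percent, stacked), in each of the 11 libraries. The Gs-coupled share is 43.0% to 45.7% in the P7 IP libraries and at most 32.3% in the P14 and P21 IP libraries. This fall lies in Htr7, with 36.26% to 38.95% at P7 and at most 22.36% later, and not in Htr6.

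Of the 4 other mouse serotonin receptor genes, Htr5b and Htr1d were tested. Htr5b averaged 1.68 ± 0.28 TPM at P7, 2.63 ± 0.17 TPM at P14 and 2.13 ± 0.28 TPM at P21 in IP, and 1.93 TPM in P7 input. It was higher at P14 than at P7 by 0.44 ± 0.12 (adjusted p = 0.0125), the order also seen for Htr5a. Htr1d averaged 2.07, 1.28 and 1.28 TPM in P7, P14 and P21 IP and was not called in any comparison. Htr2b reached at most 0.304 TPM and Htr3b at most 0.0431 TPM, and neither was tested.

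Genes for serotonin synthesis, transport and breakdown formed 1 of the pathway lists, with 7 of 10 tested. None was higher with age in limma (0 of 7 in each pair of ages, and 0 also at an unadjusted p under 0.05), while 4 were lower at P14 than at P7, 4 lower at P21 than at P14 and 6 lower at P21 than at P7, the last with a median of -0.82. Of all genes 22.8%, 19.7% and 32.6% were lower in these comparisons, and 26.7%, 8.53% and 27.3% were higher. Slc29a4, a low-affinity monoamine transporter, averaged 110 ± 7.52 TPM at P7, 44.2 ± 0.33 TPM at P14 and 23.2 ± 1.32 TPM at P21 in IP, and 99.6 ± 10.0 TPM in P7 input. P14 was below P7 by 1.29 units (log2 change -1.29, adjusted p = 4.01e-07) and P21 below P14 by 0.90 units (-0.90, adjusted p = 2.37e-05).

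Slc22a3, another low-affinity transporter, averaged 6.39, 3.46 and 1.18 TPM at the 3 ages, with changes of -0.74 at P14 against P7 (adjusted p = 0.000793) and -1.02 at P21 against P14 (adjusted p = 0.00038). Maoa, the monoamine oxidase that prefers serotonin, was chosen after its values were seen. It averaged 18.7, 11.0 and 6.30 TPM, with a change of -1.43 at P21 against P7 (adjusted p = 2.84e-07). Slc6a4, the high-affinity serotonin transporter, averaged 0.780 ± 0.204 TPM at P7, 0.0986 ± 0.0110 TPM at P14 and 0.0457 ± 0.0169 TPM at P21, and was not tested. Every P7 library of Slc6a4 lay above every later one.

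The signalling lists moved in both directions, where 26.7% of all genes were higher and 22.8% lower at P14 against P7. Of 8 tested Gi/o genes 3 were higher and 2 lower, shares near those of all genes. Kcnj9, a subunit of the potassium channels that Gi/o receptors open, averaged 40.3, 93.7 and 107 TPM at P7, P14 and P21 and rose by 1.21 units to P14 (adjusted p = 1.29e-06), and its partner Kcnj6 rose by 1.18 (adjusted p = 0.000107). Gnai3, a Gi alpha subunit, averaged 44.9, 19.8 and 11.2 TPM and fell by 1.15 units (log2 change -1.15, adjusted p = 5.07e-06).

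Of 9 Gq genes 6 were higher and 2 lower at P14 against P7, beside 26.7% and 22.8% of all genes. Itpr1, the calcium release channel opened by inositol trisphosphate, rose by 1.09 (adjusted p = 5.80e-06) and by a further 0.90 between P14 and P21 (adjusted p = 0.000135).

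Of 17 Gs and cyclic AMP genes 8 were higher and 3 lower in the same comparison, where 26.7% and 22.8% of all genes were. Rapgef4, an exchange factor activated by cyclic AMP, averaged 35.3, 84.1 and 147 TPM and rose by 1.24 units to P14 (adjusted p = 7.90e-05). Gnal, a Gs-type alpha subunit, averaged 183, 92.4 and 58.1 TPM and was lower at P14 (log2 change -0.98, adjusted p = 1.30e-06), and it was higher in P7 IP than in P7 input (0.76, adjusted p = 7.25e-06). Prkar2b, a regulatory subunit of protein kinase A, was also lower at P14 (-0.87, adjusted p = 8.28e-06).

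Of 14 receptor partners and assembly or editing genes 5 were higher and 6 lower at P14 against P7, against 26.7% and 22.8% of all genes. S100a10 (p11), which binds Htr1b and Htr4, averaged 448 ± 27.6 TPM at P7, 161 ± 16.6 TPM at P14 and 101 ± 5.91 TPM at P21 in IP, and 237 ± 3.38 TPM in P7 input. It was higher in P7 IP than in P7 input by 0.92 ± 0.09 (adjusted p = 5.33e-06), and lower at P14 than at P7 (log2 change -1.48 ± 0.08, adjusted p = 3.96e-07). Dlg4, a postsynaptic scaffold that binds Htr2a and Htr2c, was higher at P14 than at P7 by 0.90 (adjusted p = 1.73e-06). Mpdz, a scaffold that binds Htr2c, was lower in P7 IP than in P7 input by 1.80 units (log2 change -1.80, adjusted p = 7.32e-08).

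**Figure D5:**
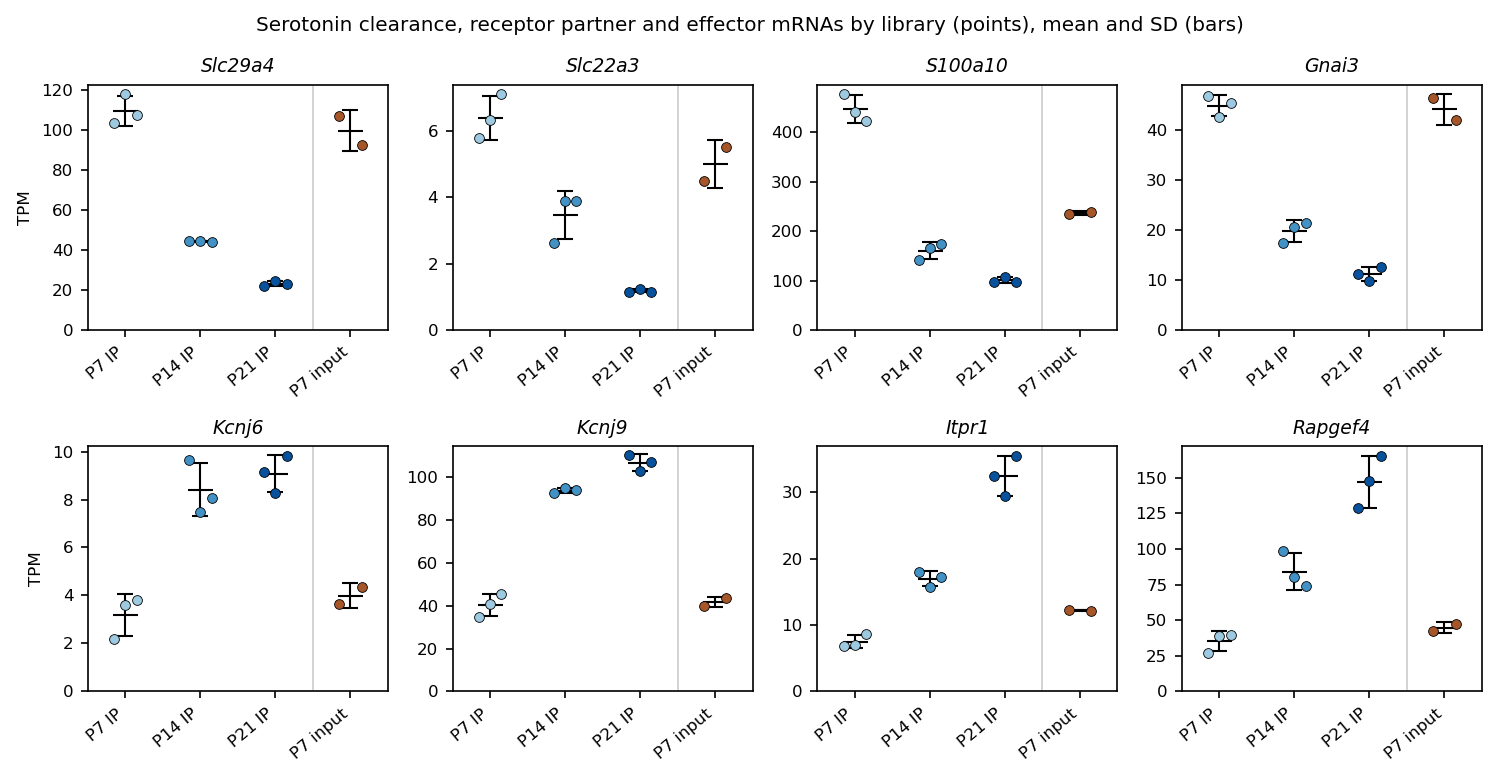
TPM of 8 genes for serotonin clearance (Slc29a4, Slc22a3), receptor binding (S100a10) and signalling (Gnai3, Kcnj6, Kcnj9, Itpr1, Rapgef4) in each library (points), with mean and SD (bars). The upper 4 genes are highest at P7 and lowest at P21 in IP, and the lower 4 are lowest at P7.

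Likeness of course was taken as Pearson's correlation of log2(TPM + 1) over the 9 IP libraries, given as a description since the libraries share 3 ages. For Htr7 genes of like course were Dram2 (0.994) and Tdrkh (0.993), and the most alike were for Htr2a Cnst (0.991), Cnksr2 (0.988) and Magi1 (0.988), and for Htr2c Ccn3 (0.986), Qrsl1 (0.974) and Mknk1 (0.972). Those for Htr1a were Klf13 (0.989), Msl1 (0.988) and Rab6b (0.988), and those for Htr5a Ythdf3 (0.983), Abhd13 (0.979) and Rhot1 (0.976). Among the members Htr1a and Htr2a were closest (0.937), Htr2c and Htr5a came to 0.824, and Htr6 and Htr7 ran opposite (-0.824).

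Reads of overlapping genes could be shared where counting ignores strand, and the sources used here do not state its use. In the RefSeq annotation of GRCm38.p6 the spans of Htr1b, Htr2c, Htr3a and Htr4 overlap other genes. Those overlapping Htr2c are 8 small or predicted RNA genes. Whole spans were compared, with introns and without regard to strand. Whether these genes share reads with the receptors was therefore not tested.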

How the data were processed

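Poly(A) RNA of 11 libraries was measured by RNA-seq. The deposited table gives TPM per Ensembl gene ID, made by the authors with fastp 1.0.1, Salmon 1.10.0, DESeq2 1.46.0 and the build mm39, per the submitters' processing notes, which give no role or order. The annotation, the summing over transcripts and the use of strand are not stated there or in the labels, and TPM leaves the depth unknown. Symbols were matched to 50886 of 77179 IDs.

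The 19008 genes that reached 1 TPM in 2 or more libraries were fitted in R 4.3.3 with limma 3.58.1 on log2(TPM + 1), as 4 group means over 11 libraries with empirical Bayes and a trend (7 residual degrees of freedom). P-values were adjusted by Benjamini-Hochberg over all genes, with a call at an adjusted p below 0.05. The fit was tested on simulated data. Changes of low genes are understated on this scale. Alternatives varied the pseudocount, filter, scaling, moderation, replicate block, samples fitted and single libraries left out. The members, lists and tests were chosen with earlier results of these data known. The genes named are all members and the 4 other receptor genes, in each list and comparison up to 4 called genes (the 2 that rose most and the 2 that fell most), and the 3 genes most alike in course, among those with a mean of at least 5 TPM. Some genes that this rule names are not reported here.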

Additional observations from a re-analysis of the deposited data

Results flagged for a closer look

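The second weekly step (P21 minus P14) and the first (P14 minus P7) were compared directly in IP, as a difference of differences in limma. The steps share the P14 libraries, so a P14 value that is off by chance moves both. They were unequal for 4 members, 0 in the positive and 4 in the negative direction at an unadjusted p under 0.05 as well as after adjustment, where 24.3% of all genes were called, 7.46% higher and 16.8% lower. Under median-of-ratios scaling the split over all genes, 1418 higher and 3195 lower as deposited, was 2266 higher and 1982 lower.

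For Htr2c the first step was 0.66 and the second -0.70, a difference of -1.36 ± 0.22 (adjusted p = 0.00202). For Htr1a the difference was -0.89 ± 0.21 (adjusted p = 0.0129), with a first step of 0.71 and a second of -0.18. For Htr2a it was -0.76 ± 0.21 (adjusted p = 0.0243), with a first step of 0.76 and a second of -0.00. For Htr5a it was -0.61 ± 0.17 (adjusted p = 0.0233), with steps of 0.34 and -0.28. Outside the 10 members Htr5b also had unequal steps, with a difference of -0.66 (adjusted p = 0.0476). Without P14 IP replicate 2 the number of members with unequal steps was 2 in place of 4. Groups of 2 or 3 libraries are too small for a test of single libraries that stand apart.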

How the results depend on the processing

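Of 1879 recomputed values of single genes, 1758 kept their direction and their side of the threshold, and of 366 recomputed counts 338 stayed within 1.5 times the count reported. The single genes include pathway genes taken because they were called with the largest changes in these data. The first share therefore does not describe the receptors alone. For P7 IP against P7 input, 3 members were higher under median-of-ratios scaling and 6 under quantile normalisation in place of 1, and 1 was lower under quantile normalisation in place of 3. Genes higher numbered 6829 and 6256 and genes lower 5555 and 6025 under these scalings, and 5421 were lower with a mean of at least 5 TPM, where fewer genes are tested. The signs of Htr1a (0.008 and 0.19), Htr1b (0.24 and 0.45), Htr2a (0.19 and 0.39) and Htr6 (0.22 and 0.42) turned under median-of-ratios scaling and quantile normalisation.

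Only Htr1a, Htr2c and Htr7 had a mean of at least 5 TPM, so counts under that filter are out of these members and not out of 9. For P14 against P7, 2 of them were higher and 1 lower under it. With single libraries left out 3 to 6 members were higher, and Htr1b ranged from -0.082 to 0.032. For P21 against P14, 2 members were lower with a pseudocount of 5 TPM, a mean of at least 5 TPM, no trend or the replicate block, and 1 to 2 with single libraries left out. Median-of-ratios scaling gave 2691 genes higher and 2258 lower. Members near 0 changed sign: Htr1b to 0.044 and 0.019, Htr1f to 0.066 and 0.039, and Htr2a to 0.098 and 0.070 under the same 2 scalings. Leaving mitochondrial, haemoglobin and ribosomal protein genes out of the total took Htr1f to 0.003 and Htr2a to 0.006. With single libraries left out Htr1f ranged from -0.112 to 0.069, Htr2a from -0.093 to 0.077, Htr3a from -0.005 to 0.139 and Htr6 from -0.083 to 0.181.

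With a mean of at least 5 TPM, a filter that only Htr1a, Htr2c and Htr7 pass, 1 member was higher for P21 against P7. There Htr2c turned to 0.008 and 0.006 under these scalings and ranged from -0.120 to 0.005 with single libraries left out, and Htr5a from -0.019 to 0.114. For the difference between weekly steps, 1 member was higher under median-of-ratios scaling, and 2 were lower without the filter or with the filter on the mean. Single libraries left out gave 2 to 4 members lower, 868 to 1361 genes higher and 2065 to 3338 genes lower, and median-of-ratios scaling 2266 higher and 1982 lower. The F test called all 3 members with a mean of at least 5 TPM. Apart from the filters, the cause was not tested.

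The labels give replicate numbers but no shared animal or day. Deviations of same-numbered IP libraries correlated at 0.01 to 0.18 over 9 pairs, 1 of them over 0.1. For differently numbered IP libraries of different ages the correlations were -0.12 to 0.10. When a library was set against the 3 libraries of another age, its own number correlated best in 9 of 18 cases. The numbers were not taken as pairs in the main fit. Same-numbered libraries of different ages come from separate animals, since the tissue was dissected at each age. P7 input replicate 2 lacks Cre, so it does not come from the animals of P7 IP replicate 2. Whether the numbers reflect a shared day was not tested. With the replicate block 1 member was higher and 4 lower for P7 IP against P7 input, where 3499 genes were higher and 9850 lower of 19008. The 4 include Htr3a, which entered the test only through its input libraries, and Htr2a (-0.27, adjusted p = 0.0269). In this comparison the block ties the Cre-negative input library to P7 IP replicate 2. With the block 5 members were higher and 1 lower for P14 against P7, beside 5195 and 4425 genes. For P21 against P14, 0 were higher and 2 lower, beside 1651 and 3944 genes, and Htr7 was called (adjusted p = 0.0147). The F test lost Htr1f (adjusted p = 0.0622). TPM values carry no depth, so the precision of members under 1 TPM is not known, and log2(TPM + 1) understates their changes.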
